A study of Mus musculus with 5 samples.

Results

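Myonuclei, the nuclei inside the multinucleated muscle fiber, were compared between adult and neonatal hindlimb muscle of the mouse. Both libraries came from hindlimb skeletal muscle of WT C57bl6n mice without a treatment, one at postnatal day 5 (P5, 8 hindlimbs pooled) and one in the adult at 8 weeks of age (4 hindlimbs pooled, mice of both sexes). Nuclei were stained for PCM1, a protein that marks myonuclei, sorted, and both sorted fractions, positive and negative, were pooled at equal volume for 10x Multiome, an assay that gives RNA and open chromatin of each nucleus. A nucleus counted as a myonucleus when the summed molecules (UMIs) of Ttn, Neb, Trdn and Ryr1, which encode parts of the sarcomere and of the calcium release apparatus, made up at least 1.5% of its UMIs at P5 and 4% in the adult. This gave 1764 P5 and 4387 adult myonuclei, 6151 of the 21154 barcodes kept in the 5 libraries of the study. They were 47.1% of the kept barcodes at P5 and 85.9% in the adult, shares that the sort and the mixing set as well as the tissue.

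After birth the mouse hindlimb muscle passes from growth to adult function. Fibers stop adding large numbers of nuclei, exchange embryonic and perinatal myosin heavy chains for the adult fast chains, receive a single nerve ending each, and come under the control of thyroid hormone, insulin and daily rhythms of feeding and activity. The myosin heavy chain is the motor protein of the thick filament, and the chain a fiber makes sets how fast it contracts: Myh3 encodes the embryonic, Myh8 the perinatal, Myh7 the slow, and Myh2, Myh1 and Myh4 the fast 2A, 2X and 2B forms.

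Each stage was 1 library, so no test between stages could be made. Where a pair of values is given, the first is P5 and the second adult. A gene's level is its UMIs summed over the myonuclei of a library scaled to the total of that sum, in the usual CPM, and its ratio is given with an exact 95% interval that covers counting error only. Nuclei of 1 library are not replicates, and the difference between the 2 libraries includes whatever differed between the 2 preparations. Summed UMIs came to 12387258 for P5 and 19664150 for adult myonuclei, and a P5 myonucleus was deeper (median 6414 UMIs) than an adult one (3385). At 1000 UMIs each, P5 myonuclei showed a median of 614 genes and adult ones 575, before thinning 2125 and 1377. The 2 stages are also not equally pure. Markers of mesenchymal cells summed to 1628 CPM in P5 myonuclei and 25.3 CPM in adult ones, with all 7 of 7 markers lower in the adult, against 9434 and 2034 CPM in the other kept barcodes. At P5 the 432 myonuclei with a rule share under 4% held Col1a1, a collagen of mesenchymal cells, at 1131 CPM, and the 1332 above it at 119 CPM. Just inside the P5 limit (1.5% to 1.75%, 41 nuclei) Col1a1 stood at 2042 CPM and the muscle creatine kinase gene Ckm at 140 CPM, and just outside (1.25% to 1.5%, 29 nuclei) at 2086 and 115 CPM. In the adult 47 nuclei lay at 4% to 5% and 24 at 3% to 4%. Counts of genes are therefore also given for the 1332 nuclei above 4%. Markers of tenocytes (4 of 4 measured), endothelial cells (5 of 5) and macrophages (3 of 3) were lower in the adult too, at 82.9 against 4.88, 81.1 against 9.46 and 348 against 39.6 CPM. Of 5 smooth muscle and pericyte markers 4 were lower, but the sum of that list was 449 and 410 CPM. The 1 Schwann cell marker measured lay within 2-fold, and of 2 adipocyte markers 1 was higher and 1 lower. Of the macrophage sum at P5, 300 CPM were Mrc1, whose level was higher in myonuclei than in the other barcodes (201 CPM). Of the 15 myonuclear markers outside the rule, 4 were at least 2-fold higher in the adult and 4 lower, against 8.46% and 26.0% of all 10627 genes tested. Their summed level was 38840 CPM at P5 and 39303 CPM in the adult, against 1482 and 3620 CPM in the other barcodes. The 2 libraries shared 33 barcodes, 12 of them myonuclei in both.

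The promoters of 3 genes and a distal region carry the myosin and calcium pump results below and are shown with their motifs in capitals. The sequences are from RefSeq on GRCm38.p6, the build of the files, 5′ to 3′ on the strand of the gene. Each promoter is the 250 bases before the start that RefSeq gives for the gene: Myh8 at chr11:67276874-67277123 (plus strand), Myh4 at chr11:67237562-67237811 (plus strand) and Atp2a1, the fast calcium pump, at chr7:126463074-126463323 (minus strand). The gene starts used for other distances differ, at 67238029 for Myh4 and 126463108 for Atp2a1. The distal region is the 300-base centre of the largest adult peak in the myosin cluster that no P5 peak overlaps, chr11:67139621-67139920, in intergenic sequence.
Myh8: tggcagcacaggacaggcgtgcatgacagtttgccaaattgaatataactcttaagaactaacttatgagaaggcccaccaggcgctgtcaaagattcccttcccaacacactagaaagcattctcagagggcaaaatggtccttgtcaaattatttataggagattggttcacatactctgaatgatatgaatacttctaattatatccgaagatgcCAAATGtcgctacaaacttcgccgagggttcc
Myh4: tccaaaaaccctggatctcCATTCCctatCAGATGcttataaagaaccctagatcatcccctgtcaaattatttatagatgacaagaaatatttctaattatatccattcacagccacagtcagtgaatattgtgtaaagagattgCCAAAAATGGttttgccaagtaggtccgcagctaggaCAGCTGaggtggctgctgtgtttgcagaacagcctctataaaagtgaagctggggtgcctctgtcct
Atp2a1: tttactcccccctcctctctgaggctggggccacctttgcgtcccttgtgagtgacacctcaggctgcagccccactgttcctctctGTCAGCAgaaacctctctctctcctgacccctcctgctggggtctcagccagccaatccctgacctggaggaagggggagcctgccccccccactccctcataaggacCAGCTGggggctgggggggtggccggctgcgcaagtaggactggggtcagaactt
Adult-only peak: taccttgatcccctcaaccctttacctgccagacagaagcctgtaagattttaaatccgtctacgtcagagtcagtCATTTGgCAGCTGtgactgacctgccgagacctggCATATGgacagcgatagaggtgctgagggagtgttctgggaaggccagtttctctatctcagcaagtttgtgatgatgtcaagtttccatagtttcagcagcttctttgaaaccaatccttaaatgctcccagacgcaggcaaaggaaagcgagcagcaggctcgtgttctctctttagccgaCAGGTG
The capitals mark the E-box CANNTG (the site type of the MyoD family), the large Maf site TGCTGAC, the TEAD core GGAATG and the CArG box of serum response factor, each searched on both strands. The Myh8 sequence held 1 E-box. The Myh4 sequence held 2 E-boxes, 1 CArG box and 1 TEAD core. Atp2a1 held 1 E-box and 1 Maf site, and the distal region 4 E-boxes. The MEF2 core TAAAAATA was in none of the 4. Only this exact word was searched for MEF2, on both strands, so looser forms of its site were not looked for. Myh8 and Myh4 share the run tgtcaaattatttatag, of 17 bases, beginning 106 bases before the RefSeq start of Myh8 and 189 before that of Myh4. Of the 32851 promoters of 300 bases in the table, 72.3% held an E-box, 14.7% the TEAD core, 4.67% the Maf site, 2.72% the MEF2 core and 1.63% the CArG box. A match here describes the letters and not binding.

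The perinatal and embryonic myosins were among the genes with the lowest adult levels relative to P5. The perinatal Myh8 stood at 3208 CPM at P5 (39736 UMIs) and 0.407 CPM in the adult (8 UMIs), 7885-fold lower (4001 to 18265). The embryonic Myh3 stood at 93.2 CPM at P5 and, with 3 UMIs, 0.153 CPM in the adult. The cardiac actin Actc1, used by fetal muscle, was at 92.0 and 5.29 CPM, the light chain Myl4 at 39.5 and 2.19 CPM and the cardiac troponin T gene Tnnt2 at 8.88 and 0.153 CPM. Thus 5 of the 6 members were at least 2-fold lower, against 26.0% of all genes tested, and the exception was the myosin binding protein gene Mybph, at 45.0 and 47.5 CPM. The list was partly taken from the study, which chose such genes on these libraries.

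The shift was also seen nucleus by nucleus. Among nuclei with at least 3 myosin UMIs (1632 at P5, 4044 in the adult), the myosin with most UMIs was Myh8 in 54.5% at P5 (exact 95% interval 52.0 to 56.9) and in 0 of 4044 adult nuclei, where a floor of 3 counts gives an upper limit of 0.0742% and the exact interval one of 0.0912%. Myh4 led 30.3% of P5 nuclei (28.1 to 32.6) and 80.7% of adult nuclei (79.5 to 81.9). Myh1 led 7.66% and 12.5%, Myh2 1.72% and 5.84%, Myh7 3.799% and 0.594%, and Myh3 0.858% and none. The P5 library therefore held nuclei led by all 6 myosins, and the adult library by 4. Of the barcodes that were not myonuclei, 51 of 1983 at P5 and 21 of 719 in the adult had as many myosin UMIs.

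**Figure D1:**
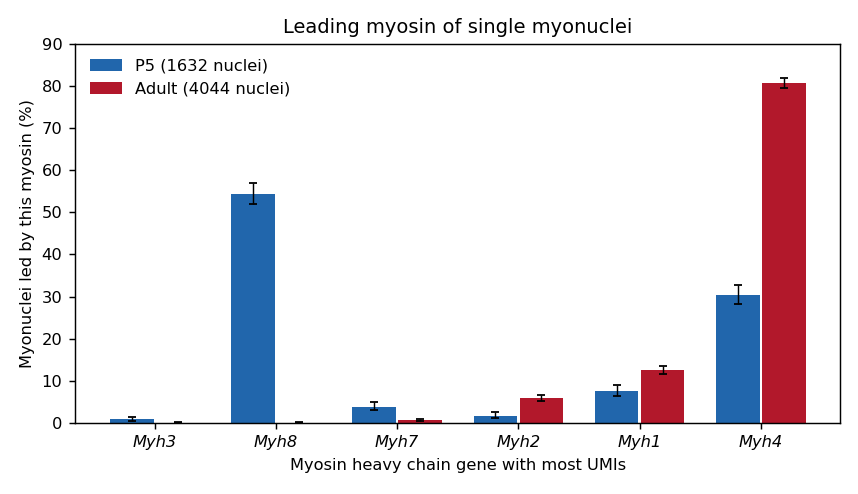
Share of myonuclei (%) by the myosin heavy chain gene with most UMIs, for P5 (blue, 1632 nuclei) and adult (red, 4044 nuclei), with exact 95% binomial intervals that cover counting error. Myh8 led 54.5% at P5 and none in the adult, and Myh4 led 30.3% and 80.7%.

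Many P5 nuclei held UMIs of more than 1 myosin. In the 495 P5 nuclei led by Myh4, 86.6% of the myosin UMIs were Myh4 and 12.1% Myh8, and 64.0% of the nuclei had a Myh8 UMI. Thinned to 1000 UMIs, 68.0% of all P5 myonuclei and 3.58% of the other P5 barcodes held a Myh8 UMI. In CPM, Myh8 stood at 589 in the nuclei led by Myh4 and 44.2 in the other barcodes. Doublets were not removed, and their part in the mixed nuclei was not tested. In the 125 led by Myh1, 29.0% of the myosin UMIs were Myh8. In the 3264 adult nuclei led by Myh4, 98.5% were Myh4. Adult nuclei led by Myh2 were the most mixed of the 3 fast adult classes, with 76.8% Myh2 and 20.7% Myh1. Myosin as a whole made up 5717 CPM at P5 and 4162 CPM in the adult.

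Over all genes, 10627 had at least 100 UMIs in the 2 sums together. Of these 899 were at least 2-fold higher in the adult (8.46%) and 2767 at least 2-fold lower (26.0%), and the median log2 ratio was −0.25. At 10-fold the counts were 77 and 767, and at 50-fold 7 and 163. The split turned on the scaling and on the nuclei: with TMM factors, which shift every log2 ratio by 0.52, it was 2003 higher and 1968 lower, and with the P5 nuclei above 4% it was 1074 and 1840. Of the 899 genes higher in the adult, 678 had a higher level in adult myonuclei than in the other adult barcodes. Of the 2767 lower genes only 856 had a higher level in P5 myonuclei than in the other P5 barcodes. How much of the lower set came from RNA of other cells was not tested. The genes named below by rank are those higher in myonuclei than in the other barcodes.

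**Figure D2:**
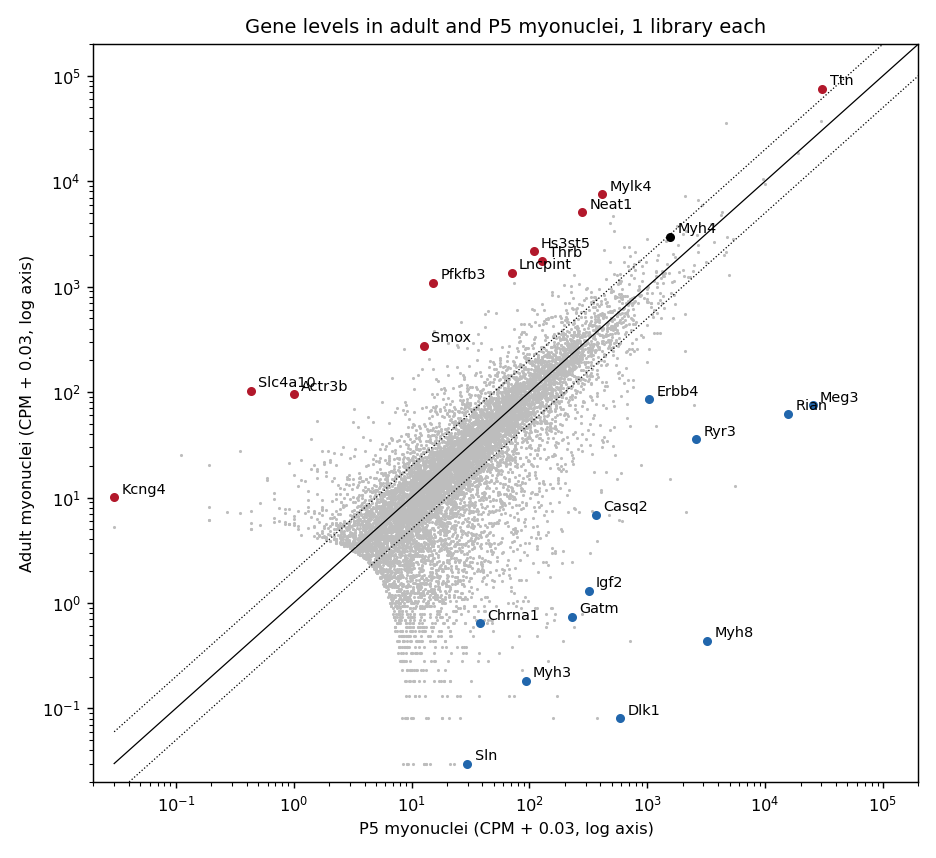
Level of each of 10627 genes in P5 (x axis) and adult (y axis) myonuclei, in CPM plus 0.03 on log axes; the solid line marks equal levels and the dotted lines 2-fold. Myh8 lies at 3208 and 0.407 CPM, Meg3 at 25327 and 75.0 CPM, Mylk4 at 415 and 7484 CPM and Pfkfb3 at 15.3 and 1090 CPM.

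Ratios also moved with gene length. The median log2 ratio was −1.09 over 558 genes under 5 kb, of which 53.1% were at least 2-fold lower, between −0.13 and −0.30 in the classes from 5 to 200 kb, and −1.01 over 807 genes longer than 200 kb. The part that length plays in the results below was not tested. Of the genes named below, Cox6a2, Pgam2, Nnat, Myog, Tnnc2, Gamt, Acta1, Tuba1b, Stbd1, Ciart, Tuba1a, Gjd4, Sln, Gapdh, Sox4 and Ppp1r3c are under 5 kb long.

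Of 18 adult fast sarcomere genes measured, 6 were at least 2-fold higher and 4 lower, against 8.46% and 26.0% of all genes, with a median log2 ratio of 0.78. The kinase gene Mylk4 showed the largest ratio, at 415 and 7484 CPM, 18.04-fold higher (17.5 to 18.55). Mylk2, the skeletal myosin light chain kinase, stood at 138 and 492 CPM, Mybpc2, fast myosin binding protein C, at 235 and 778 CPM, Myh2 at 111 and 333 CPM, and Actn3, the fast fiber actinin, at 208 and 461 CPM. The fast troponin T gene Tnnt3 stood at 759 and 1546 CPM, and fell short of 2-fold in the P5 nuclei above 4% (log2 0.82). Myh4 itself stood at 1572 and 2987 CPM, 1.90-fold higher (1.87 to 1.93), and Myh1 at 617 and 822 CPM.

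The 4 lower members encode abundant small proteins of both filaments. The skeletal actin gene Acta1 (2.98 kb) was at 669 and 102 CPM, fast troponin C Tnnc2 (2.81 kb) at 186 and 23.5 CPM, the regulatory light chain Mylpf (5.41 kb) at 451 and 70.6 CPM and the essential light chain Myl1 (21.1 kb) at 4624 and 2144 CPM. All 4 were above the other barcodes of their library. The list the study named as mature fast genes held 3 of 5 at least 2-fold higher, against 8.46% of all genes. These were Mybpc2, Actn3 and Ckm (350 and 701 CPM, 2.00-fold, 1.94 to 2.07), while Myh4 and Atp2a1 (1811 and 2491 CPM) lay below 2-fold. With the P5 nuclei above 4% Ckm stood at log2 0.78 and Actn3 at 0.90, so that only Mybpc2 kept 2-fold.

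All 12 measured slow fiber genes were at least 2-fold lower, against 26.0% of all genes, at a median log2 ratio of −2.55. The slow myosin Myh7 was at 116 and 20.0 CPM, the slow troponin I gene Tnni1 at 36.2 and 1.98 CPM and the Z-disc protein gene Myoz2 at 258 and 28.6 CPM. Casq2, the calcium buffer of cardiac and slow muscle, was at 368 and 6.81 CPM, 54.0-fold lower (45.5 to 64.6). At P5 the slow troponin I gene was concentrated in slow nuclei, at 1.61 CPM in nuclei led by Myh4, 26.9 led by Myh8 and 490.0 led by Myh7. Casq2 was more evenly spread, at 246 CPM led by Myh4, 411 led by Myh8 and 462 led by Myh7. In the adult it stood at 0.521 CPM in nuclei led by Myh4 and 97.6 CPM in the 24 led by Myh7. In sums like these, fewer nuclei of a type and less RNA per nucleus cannot be told apart, and the values by leading myosin are levels within 1 class.

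Excitation-contraction coupling genes, which link the membrane signal to calcium release, were called about as often as all genes: of 27 measured 2 were higher and 8 lower, against 8.46% and 26.0% of all genes, with a median of −0.23. Ryr3, the calcium release channel that young muscle makes beside Ryr1, was at 2601 and 35.5 CPM, 73.3-fold lower (68.0 to 79.1), in every class by leading myosin. Sln, sarcolipin, an inhibitor of the calcium pump, had 368 UMIs at P5 (29.7 CPM) and 0 in the adult, at least 194.7-fold lower against a floor of 3 counts (exact lower limit 157.6). Pvalb, the calcium buffer of fast fibers, stood at 201 and 706 CPM and Jph2, which holds the membranes of the triad together, at 332 and 789 CPM. Pvalb was higher in nuclei led by Myh4 than in those led by Myh8 at P5 or by Myh2 in the adult, with 419 CPM in P5 nuclei led by Myh4 against 122 led by Myh8, and 847 in adult nuclei led by Myh4 against 50.9 led by Myh2. Among 26 membrane excitability genes 8 were higher and 9 lower, against 8.46% and 26.0% of all genes. The chloride channel Clcn1, which steadies the resting fiber, stood at 165 and 521 CPM and the potassium channel Kcnc1 at 30.0 and 107 CPM. Atp1b4, a relative of the sodium pump's beta subunits, was at 885 and 20.2 CPM, and Cacna1h, a low-voltage calcium channel, had 179 UMIs at P5 and 0 in the adult, at least 94.7-fold lower against the same floor (exact lower limit 76.2).

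Neuromuscular junction genes were lower in 14 of 19 and higher in 1, against 26.0% and 8.46% of all genes, with a median of −2.65. The acetylcholine receptor subunit Chrna1, which fibers make along their whole length until the nerve restricts it, was at 38.4 and 0.610 CPM, 62.8-fold lower (35.6 to 123). Col25a1, a membrane collagen needed for motor innervation, was at 165 and 2.95 CPM, and in P5 nuclei was highest in those led by Myh8 (249 CPM against 38.4 led by Myh4). Erbb4, a neuregulin receptor, was at 1044 and 85.2 CPM and the adhesion gene Ncam1 at 420 and 33.7 CPM. Thinned to 1000 UMIs, 4.18% of P5 myonuclei and 4.42% of the other P5 barcodes held Col25a1. For Ncam1 these were 23.3% and 22.1%, for Erbb4 31.9% and 3.84% and for Chrna1 3.76% and 0.474%. Without nuclei holding 3 or more marker UMIs of other cells, the log2 ratio of Col25a1 was −2.79 against −5.81, and that of Ncam1 −3.57 against −3.64. The receptor kinase Musk (250 and 139 CPM), the scaffold Rapsn (25.8 and 22.5 CPM) and its partner Dok7 (22.9 and 29.5 CPM) lay within 2-fold. The exception above was Prima1, the membrane anchor of acetylcholinesterase, at 0.323 CPM (4 UMIs) and 7.17 CPM (141 UMIs). A pair of gap junction genes was close to absent in the adult: Gja3 stood at 73.6 and, with 2 UMIs, 0.102 CPM, and Gjd4 had 281 UMIs at P5 and 0 in the adult, at least 148.7-fold lower against that floor (exact lower limit 120.1). Both were near 0 in the other barcodes at P5 (0.404 and 0.202 CPM).

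Myoblast fusion genes were lower in 14 of 16, against 26.0% of all genes. The list moved with the choice of nuclei: with the P5 nuclei above 4% its median log2 ratio was −1.29 against −2.34, and that of Elmo1, a partner of the Rac activator Dock1, −1.24 against −3.29, and 0.41 without nuclei holding 3 or more marker UMIs of other cells. Each list median covers only the members with at least 100 UMIs under that choice, so the medians need not cover the same genes. Cdh2, N-cadherin, stood at 28.7 and 0.356 CPM in myonuclei and at 174 and 46.5 CPM in the other barcodes. In the dystrophin complex and laminin receptor list 13 of 27 were lower and 2 higher, against 26.0% and 8.46% of all genes. Dmd itself lay within 2-fold, at a log2 ratio of −0.05. The syntrophin gene Sntb1 was at 1197 and 47.8 CPM, 25.1-fold lower (23.5 to 26.8), against 111 CPM in the other P5 barcodes. Nos1, the nitric oxide synthase that docks on the complex, stood at 72.7 and 199 CPM, and Lama5, a laminin chain, at 5.89 and 28.9 CPM. Of 21 Z-disc, stretch and chaperone genes 9 were lower and 2 higher, against 26.0% and 8.46% of all genes. The lower ones included the stretch-responsive Ankrd1 (33.7 and 0.915 CPM) and Csrp3 (46.6 and 4.73 CPM). The 2 higher were Fhl3 (18.7 and 99.01 CPM) and Ky (248 and 575 CPM).

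**Figure D3:**
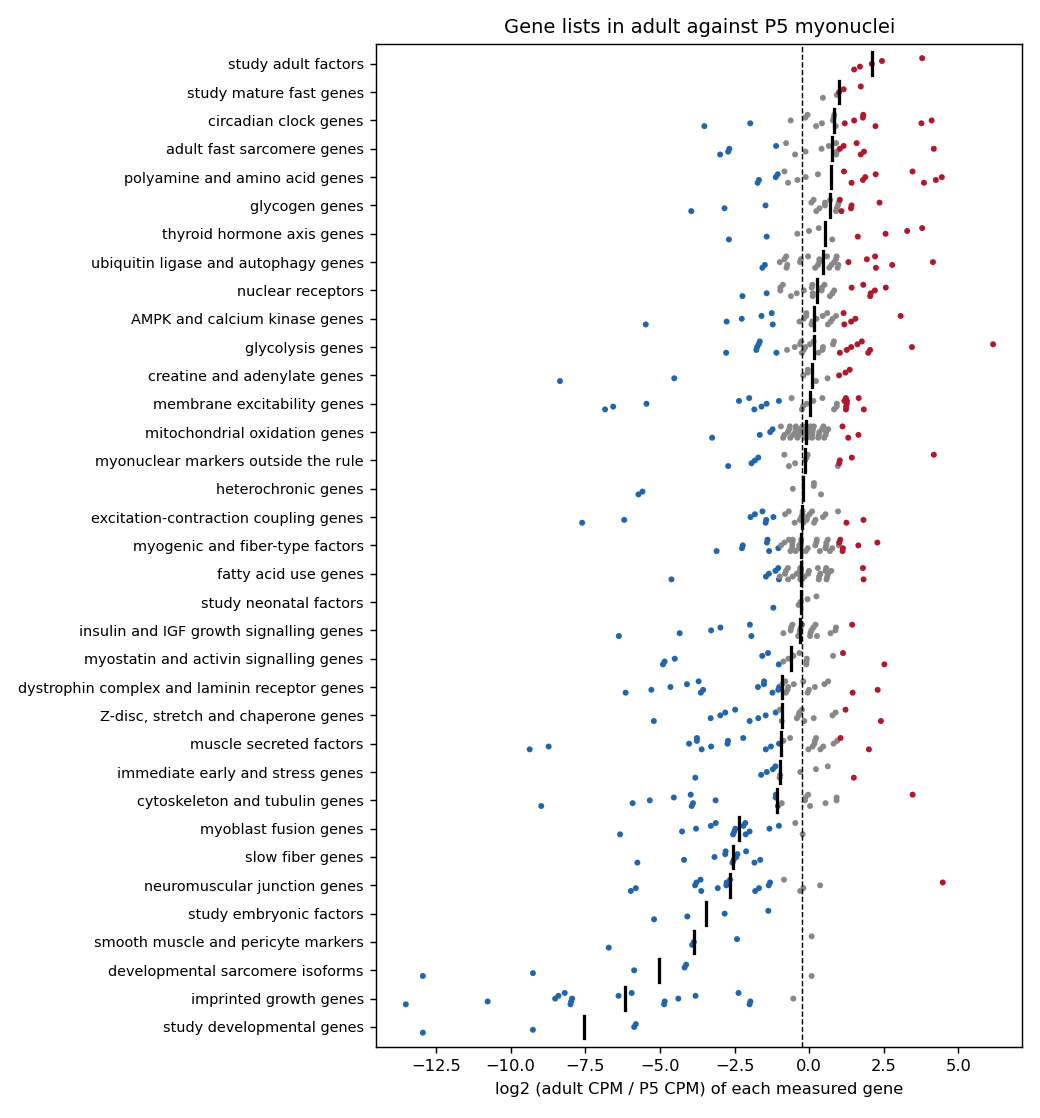
Log2 ratio of adult to P5 CPM for each measured gene of the lists (points; red at least 2-fold higher, blue at least 2-fold lower, grey between), with the list median as a bar and the median of all 10627 genes, −0.25, as the dashed line. Medians run from −7.56 for the study's developmental genes and −6.17 for imprinted growth genes to 2.10 for the study's adult factors.

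Imprinted growth genes are read from 1 parental copy and support growth before and after birth. They were lower in 17 of 18, against 26.0% of all genes, with a median of −6.17. The noncoding RNAs Meg3, Rian and Mirg come from 1 cluster with Dlk1 and Rtl1. Meg3 alone made up 25327 CPM of P5 myonuclear RNA and 75.0 CPM in the adult, 338-fold lower (321 to 356). Thinned to 1000 UMIs, 99.5% of P5 and 1.45% of adult myonuclei held a Meg3 UMI, against 87.2% and 41.0% of the other barcodes. Adult myonuclei therefore held less Meg3 than the other adult barcodes, where it stood at 917 CPM. Mirg was at 2122 and 7.27 CPM. Igf2, a growth factor of the fetus, was at 319 and 1.27 CPM and Dlk1 at 591 CPM and, with 1 UMI, 0.0508 CPM. Both were present in the other barcodes at P5, at 192 and 668 CPM. Grb10, a brake on insulin and IGF receptors, was at 1318 and 94.2 CPM, and Nnat, at 18.9 and 13.1 CPM, lay within 2-fold. Igf2bp2 and Igf2bp3, RNA-binding proteins of fetal tissue, were at 155 and 2.95 and at 156 and 3.25 CPM. The other 4 of 6 measured heterochronic genes lay within 2-fold. In the insulin and IGF signalling list, 18 of 25 members lay within 2-fold and 6 were lower, close to the 26.0% of all genes, with Igf1r at 443 and 355 CPM, Insr at 337 and 277 CPM and Irs1 at 490 and 500 CPM, while Irs2 stood at 37.8 and 102 CPM. Igf1 (120 and 12.4 CPM) was far higher in the other P5 barcodes (896 CPM), and its log2 ratio of −3.28 was −0.21 with the P5 nuclei above 4% and without mesenchymal marker nuclei.

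Of the transcription factors the study assigned to stages, all 5 adult factors were at least 2-fold higher, against 8.46% of all genes, with a median of 2.10. The study chose the factors of every stage on these libraries, so that their directions are not independent. Thrb, the thyroid hormone receptor beta, stood at 127 and 1752 CPM, 13.8-fold higher (13.1 to 14.49), Esr1, the estrogen receptor, at 154 and 836 CPM, the activity-induced receptor Nr4a1 at 86.8 and 371 CPM, the large Maf factor Maf at 218 and 706 CPM, and the clock-output factor Tef at 93.2 and 264 CPM. Thrb was high in every adult class (1540 to 2224 CPM), whereas Maf followed Myh4, with 799 CPM in adult nuclei led by Myh4, 401 by Myh1 and 212 by Myh2, and 375 CPM in P5 nuclei led by Myh4 against 161 by Myh8. The 3 fetal factors were at least 2-fold lower, against 26.0% of all genes. Myog, which drives muscle differentiation, was at 10.2 and 1.27 CPM, Klf5 at 31.6 and 4.12 CPM and Tead4 at 56.4 and 9.66 CPM. The 4 embryonic factors were at least 2-fold lower too, against the same share of all genes. But Elk3, Sox4, Plag1 and Etv5 were all at higher levels in the other P5 barcodes, and Etv5 stood at log2 −0.73 with the P5 nuclei above 4%. Of the 5 neonatal factors Nfia, Nfib, Nfic and Nfix lay within 2-fold and Prrx1 was at 376 and 164 CPM. In a wider list of myogenic and fiber-type factors, 26 of 39 lay within 2-fold. Of the rest 6 were higher and 7 lower, against 8.46% and 26.0% of all genes. Bcl6, a transcriptional repressor, stood at 90.6 and 441 CPM, and Sox6, which represses slow fiber genes, at 2890 and 5948 CPM.

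In the thyroid axis 4 of 10 were higher and 2 lower, against 8.46% and 26.0% of all genes. Beside Thrb, its cofactor and classic target Hr stood at 3.88 and 37.7 CPM and the target Klf9 at 64.1 and 198 CPM, while the alpha receptor Thra was at 136 and 50.5 CPM. The thyroid hormone carriers Slc7a8 and Slc16a10 stood at 18.7 and 110 CPM and at 403 and 688 CPM. Of 24 nuclear receptors 6 were higher and 2 lower, against 8.46% and 26.0% of all genes. Of 18 circadian clock genes 7 were higher and 2 lower, against the same shares of all genes. The output genes Dbp (3.47 and 47.0 CPM) and Hlf (10.5 and 48.9 CPM) and the repressors Nr1d2 (145 and 508 CPM) and Ciart (0.646 and 11.1 CPM) stood higher, and Clock (255 and 64.8 CPM) and its relative Npas2 (44.6 and 3.92 CPM) lower. Arntl, at 55.8 and 51.0 CPM, and Cry2 lay within 2-fold. The sources used here do not give the hour at which muscle was taken.

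Of 29 measured glycolysis genes, which break down glucose, 9 were higher and 6 lower, against 8.46% and 26.0% of all genes. Pfkfb3, which makes the activator of phosphofructokinase, stood at 15.3 and 1090 CPM, 71.4-fold higher (61.9 to 82.9), and its relative Pfkfb1 at 24.6 and 267 CPM. Hexokinase 2, Hk2, stood at 90.01 and 370 CPM and Pfkm, muscle phosphofructokinase, at 153 and 519 CPM. The lower members included Eno1 (12.2 kb), at 71.4 and 10.4 CPM, Gapdh (4.75 kb), at 68.9 and 21.3 CPM, and Pgam2 (2.09 kb), at 47.6 and 14.2 CPM. Glycogen genes were higher in 5 of 19 and lower in 3, against the same shares of all genes. Phka1, the muscle phosphorylase kinase alpha subunit, stood at 432 and 2208 CPM, Ppp1r3a, which brings a phosphatase to glycogen, at 445 and 1174 CPM and Ppp1r3c at 49.9 and 133 CPM, while Stbd1 was at 11.8 and 0.763 CPM. Among mitochondrial oxidation genes 40 of 47 lay within 2-fold, and among fatty acid genes 28 of 36, with the coactivator Ppargc1a at 425 and 404 CPM. Of the mitochondrial genes 3 were higher and 4 lower, and of the fatty acid genes 2 were higher and 6 lower, against 8.46% and 26.0% of all genes. The lower ones included Cox6a2, the muscle form of a respiratory chain subunit, at 16.5 and 1.73 CPM. Another was the fatty acid receptor Cd36, at 878 and 344 CPM.

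Of 10 creatine and adenylate genes measured, 3 were higher and 2 lower, against 8.46% and 26.0% of all genes. The other 5 lay within 2-fold, and the list median was 0.09. Gatm, the first enzyme of creatine synthesis, was at 232 and 0.712 CPM, 326-fold lower (194 to 597), and Gamt, the second, at 10.5 and 0.458 CPM (9 UMIs). Ckmt2, the mitochondrial creatine kinase, stood at 135 and 345 CPM. Of 18 polyamine and amino acid genes 9 were higher and 4 lower, against the same shares of all genes, with a median of 0.73. Amd1, which makes the aminopropyl donor for polyamines, stood at 16.6 and 314 CPM, 18.9-fold higher (16.5 to 21.8), and Smox, which oxidises spermine, at 12.7 and 275 CPM. Gpt2, an alanine aminotransferase, stood at 20.3 and 291 CPM and Glul, glutamine synthetase, at 15.1 and 166 CPM. Azin1, an activator of polyamine synthesis, was at 245 and 76.1 CPM. Amd1 and Smox followed Myh4 in the adult: Amd1 stood at 384 CPM in nuclei led by Myh4 and 51.9 and 31.9 CPM in those led by Myh1 and Myh2, and Smox at 337, 47.3 and 22.4 CPM.

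Protein breakdown genes were higher in 6 of 28 and lower in 2, against 8.46% and 26.0% of all genes. The ubiquitin ligase Fbxo32 (atrogin-1) stood at 26.3 and 466 CPM, 17.7-fold higher (15.8 to 19.8), Fbxo40, a ligase for the insulin receptor substrate, at 36.4 and 250 CPM, the mitophagy receptor Bnip3 at 15.3 and 71.7 CPM and Klf15, a glucocorticoid-responsive factor, at 7.43 and 34.3 CPM. The lower ones were Klhl40 (53.7 and 18.1 CPM) and Klhl41 (157 and 56.0 CPM), which stabilise thin filament proteins. Fbxo32 was high in every adult class (432 CPM led by Myh4, 576 by Myh1, 686 by Myh2). Of 24 kinase genes of the AMPK and calcium pathways 5 were higher and 6 lower, where 8.46% and 26.0% of all genes were, with Camk1d at 481 and 4015 CPM, and it was as abundant in the other barcodes (785 and 3869 CPM). The AMPK subunits Prkag3 and Prkaa2 stood at 204 and 595 and at 355 and 802 CPM. In the cytoskeleton list 11 of 20 were lower and 1 higher, against 26.0% and 8.46% of all genes. The higher one was the muscle tubulin Tuba8, at 4.68 and 51.7 CPM and at most 1.43 CPM in other barcodes. Tuba1a had 0 UMIs in adult myonuclei, at least 60.3-fold lower against a floor of 3 counts (exact lower limit 48.3). Tuba1b and Vim were at 8.23 and 0.203 and at 31.8 and 1.37 CPM. With the P5 nuclei above 4%, Tuba1a and Tuba1b had too few UMIs for a ratio. Vim then stood at log2 −2.86 against −4.53, and had too few UMIs once mesenchymal marker nuclei were also left out. How much of the P5 level of Tuba1a, Tuba1b and Vim came from RNA of other cells was not tested. Of 26 secreted factors 13 were lower and 2 higher, against 26.0% and 8.46% of all genes. The 2 higher were Il15 (19.5 and 77.8 CPM) and Ostn (9.12 and 18.9 CPM). The secreted factors summed to 5857 CPM in P5 myonuclei and 6697 CPM in the other P5 barcodes. Their median log2 ratio was −0.94, and −1.12 with the P5 nuclei above 4%. It was −0.21 when mesenchymal marker nuclei were also left out, and −0.16 without mixed nuclei. Each median covers the members with enough UMIs under that choice. Of 16 myostatin and activin signalling genes 6 were lower and 2 higher, against 26.0% and 8.46% of all genes. The inhibitor Fst was at 16.2 and 0.712 CPM.

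Some of the genes with the largest ratios differed between adult nuclei by leading myosin. Slc4a10, a bicarbonate transporter, stood at 0.404 CPM (5 UMIs) at P5 and 102 CPM in the adult, and within the adult at 128 CPM in nuclei led by Myh4 against 8.39 CPM led by Myh1. Actr3b, an actin-related protein, stood at 0.969 and 94.9 CPM, with 116 CPM led by Myh4 and 14.1 led by Myh1. Pfkfb3 and Mylk4 showed the same order, Pfkfb3 at 1328, 204 and 116 CPM and Mylk4 at 8721, 3547 and 1253 CPM for Myh4, Myh1 and Myh2. At P5 Mylk4 did not follow Myh4, with 281 CPM led by Myh4 and 451 by Myh8.

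Neat1 and Lncpint were high in all adult classes by leading myosin. The nuclear noncoding RNA Neat1 stood at 280 and 5081 CPM, 18.1-fold higher (17.5 to 18.8), with 3720 to 5172 CPM across adult classes, and Lncpint at 71.0 and 1349 CPM, with 1242 to 2212 CPM. Both were also higher in the other adult barcodes (315 and 2201 CPM for Neat1, 25.8 and 1227 CPM for Lncpint). For Hs3st5 and Kcng4 no values by class are given. Hs3st5, a heparan sulfate sulfotransferase, stood at 108 and 2165.6 CPM in myonuclei and at 12.3 and 123 CPM in the others. The potassium channel subunit gene Kcng4 had 0 UMIs at P5 and 197 in the adult, at least 41.4-fold higher against a floor of 3 counts (exact lower limit 33.3). Among genes lower in the adult and outside the lists, low levels in other cells were seen for Vwc2, a secreted protein (279 and 0.763 CPM), Arhgap36 (166 and 0.763 CPM), Tecrl (144 and 0.254 CPM) and Fndc3c1 (192 and 0.407 CPM), each at most 12.5 CPM in the other P5 barcodes.

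Open chromatin was read from peaks called by the authors in each library alone, 67013 at P5 and 81124 in the adult, over all cell types. Peaks that overlapped by at least 1 base were merged into 50165 shared regions, which held 93.05% of the P5 and 84.0% of the adult myonuclear counts (11990017 and 38147806). Of the 49636 shared regions with at least 50 counts, 1864 were at least 2-fold more open in the adult (3.76%) and 10159 less open (20.5%), with a median log2 ratio of −0.23 in peak CPM, scaled to the total in shared regions. With the P5 nuclei above 4% these were 2084 and 7031. With a minimum of 200 counts they were 1823 and 3989 of 37567 regions. Of the 1864 regions, 1659 were more open in adult myonuclei than in the other adult barcodes, and of the 10159 only 3483 were more open in P5 myonuclei than in the other P5 barcodes. Regions more open in the adult lay in introns in 48.5% and at promoters in 12.2%, those less open between genes in 39.4% and at promoters in 15.7%, and those between the limits at promoters in 32.7%.

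Many peaks had no partner. In the adult 30681 peaks (37.8%), with 16.0% of the myonuclear counts, overlapped no P5 peak, and at P5 16647 (24.8%), with 6.95% of the counts, overlapped no adult peak. Of these, 18986 and 4632 were more open in myonuclei than in the other barcodes of their library. The adult library was deeper in myonuclear counts, and a missing peak is not a count of 0, so these numbers describe the calls. Counting only peaks with at least 50 myonuclear counts left 26133 adult (35.8%) and 5740 P5 peaks (11.7%).

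Promoter openness followed RNA across genes, with both summed over the same nuclei. Of the 2767 genes lower in the adult, 1911 were at least as high in the other P5 barcodes. How much RNA and open chromatin of other cells added to this was not tested. The promoter regions of a gene were the shared regions from 500 bases before its first start site to 500 bases after its last. Where starts lie far apart, that stretch can take in regions away from any start. The 591 genes with such a region that were at least 10-fold lower in RNA had a median log2 ratio of openness of −1.12. Of them, 55.2% were at least 2-fold less open. For the 1785 genes 2- to 10-fold lower the median was −0.12, and 8.74% were at least 2-fold less open. For genes within 2-fold it was 0.09, for those 2- to 10-fold higher 0.37, and for the 46 at least 10-fold higher 0.88, of which 41.3% were at least 2-fold more open.

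**Figure D4:**
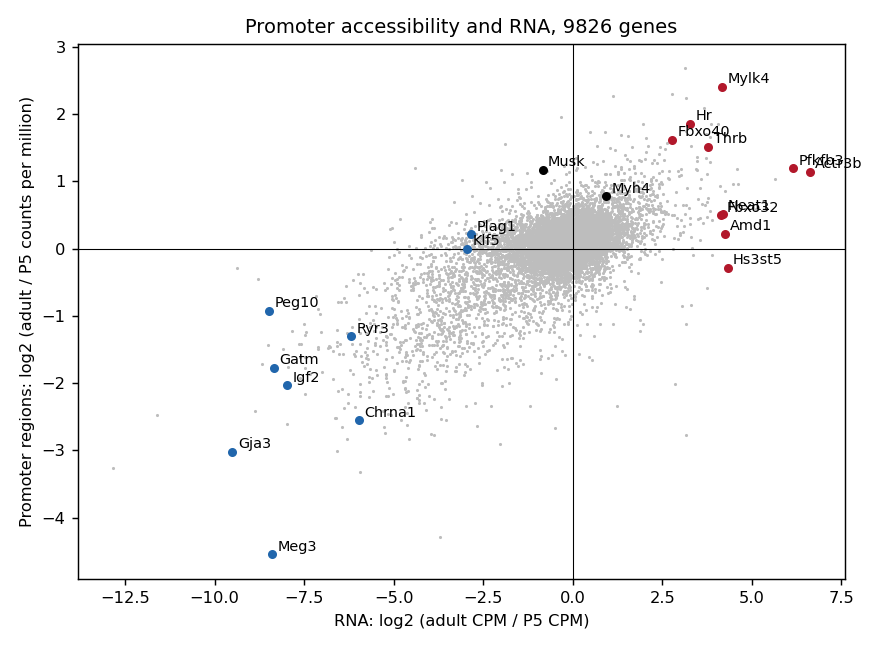
Log2 ratio of adult to P5 RNA (x axis) and of promoter openness (y axis, peak CPM) for 9826 genes with a shared promoter region. Mylk4 lies at 4.17 and 2.41, Meg3 at −8.40 and −4.55, Klf5 at −2.94 and −0.01, and Musk at −0.84 and 1.17.

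At single genes, the promoter of Mylk4 was at 6.54 and 34.7 peak CPM, 5.38-fold more open (3.84 to 7.76), that of Hr at 11.6 and 41.9, 3.66-fold (2.83 to 4.80), and that of Fbxo40 at 22.6 and 69.4, 3.07-fold (2.55 to 3.72). The start sites of Thrb, which spread over a long stretch, held 3 shared regions that were together 2.87-fold more open (2.47 to 3.34) and 13 adult peaks without a P5 partner. Over the whole gene and 10 kb on either side Thrb had 16 adult-only and 0 P5-only peaks, Hs3st5 11 and 0, Lncpint 12 and 1, and Sox6 24 and 4. Over all peaks 30681 were adult-only and 16647 P5-only. Some genes with RNA within 2-fold had such a surplus too, as Rora (53 and 6), and others did not, as Nr3c2 (3 and 3). Trdn (14 and 0) had one as well, but it is a rule gene, so its RNA ratio depends on how nuclei were selected. Around Pfkfb3 6 of 8 shared regions were at least 2-fold more open and around Tuba8 3 of 3, against 3.76% of all shared regions. In the other direction, the Meg3 promoter was at 37.2 and 1.59 peak CPM, 23.8-fold less open (15.7 to 37.6). The promoters of Gja3, Chrna1 and Gatm were 8.18-fold (5.95 to 11.4), 5.92-fold (4.36 to 8.12) and 3.40-fold (2.85 to 4.07) less open, and the 5 shared start regions of Ryr3 together 2.47-fold (2.17 to 2.81).

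Some promoters were close to level while RNA differed. Klf5, 7.68-fold lower in RNA (6.03 to 9.88), had a promoter ratio of 0.996 (0.873 to 1.14), and Plag1, 7.12-fold lower, one of 1.16 (1.07 to 1.26). Amd1, 18.9-fold higher in RNA, had a promoter ratio of 1.17 (1.02 to 1.34), and Hs3st5 one of 0.812 (0.510 to 1.33) from few counts. The promoter of Musk was 2.28-fold more open (1.63 to 3.24) with RNA 1.796-fold lower (1.71 to 1.89). Promoter peaks seen in 1 library included those of Myh8 (51.1 peak CPM at P5), Vwc2, Actc1 and Tnnt2 at P5, and Atp2a1 (86.4), Kcng4 (26.4), Mybph (24.2) and Tspan8 (11.4) in the adult. Atp2a1 RNA differed by 1.38-fold (1.35 to 1.40) and Mybph RNA by 1.06-fold (0.951 to 1.18), although only the adult library had a peak there.

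The fast and developmental myosin genes lie in 1 cluster on chromosome 11, in the order Myh3, Myh2, Myh1, Myh4 and Myh8. The cluster held 30 regions: 14 with a peak at both stages, 5 with a P5 peak alone and 11 with an adult peak alone. Over all peaks, 24.8% of the P5 and 37.8% of the adult ones had no partner. At the promoter sequences shown above, Myh8 had a P5 peak alone (chr11:67276609-67277510, 570 counts), with 51.1 peak CPM in myonuclei and 1.85 in the other barcodes. The Myh4 promoter, where the antisense gene Myhas also starts, was at 35.6 and 60.9 peak CPM, 1.72-fold more open (1.47 to 2.01). The Myh1 promoter had a ratio of 0.947 (0.732 to 1.24), and a region in an exon of Myh3, 1.87 kb after its start, was 2.09-fold less open (1.51 to 2.87).

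The space between Myh3 and Myh2, which holds the noncoding gene 2310065F04Rik, carried the most open regions. A pair at 26.5 and 27.7 kb from the Myh3 start had ratios between the stages of 0.946 (0.829 to 1.08) and 0.996 (0.892 to 1.12). The 4 shared regions from 36.8 to 47.3 kb were 1.55- to 2.05-fold more open in the adult. Beyond them, 4 adult peaks at 61.5, 62.9, 64.0 and 66.5 kb had no P5 partner. The largest, chr11:67139309-67140231, whose centre is printed above, held 2418 counts, 75.5 peak CPM in adult myonuclei and 3.08 in the other adult barcodes.

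**Figure D5:**
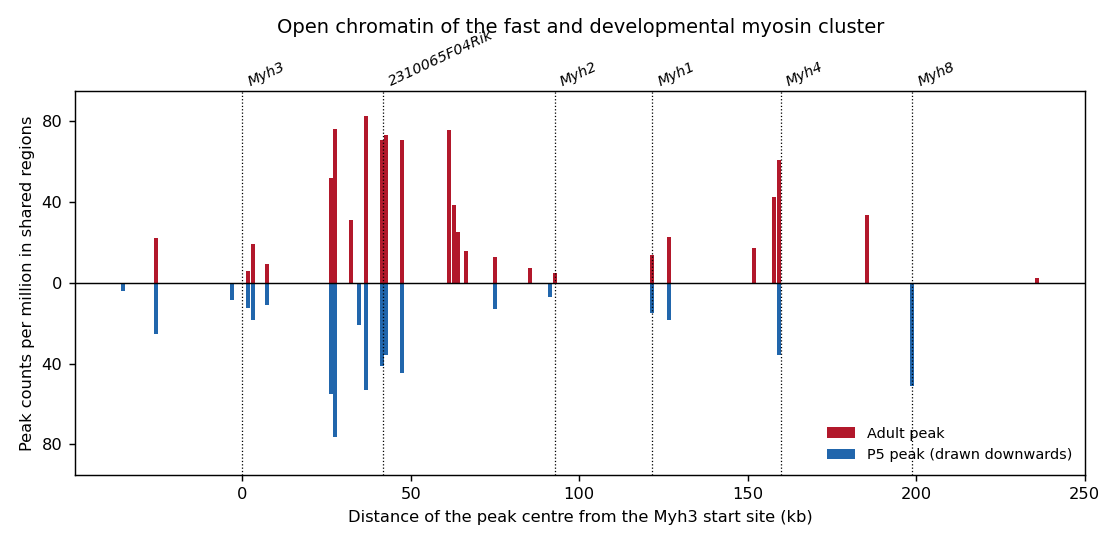
Myonuclear peak CPM (adult upwards in red, P5 downwards in blue) of each called peak, by the distance of its centre from the Myh3 start site (kb); dotted lines mark gene starts. Adult bars alone stand at 61.5 to 66.5 kb and a P5 bar alone at Myh8.

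Motif letters were counted by class of region. In the 300 bases at the centre of regions outside promoters, the MEF2 core was in 6.41% of the 1637 more open, 3.25% of the 8547 less open and 4.53% of all 35497 regions. The Maf site was in 10.4%, 8.34% and 7.98%, the TEAD core in 15.2%, 25.1% and 19.8%, and the E-box in 85.2% of all regions. These shares are descriptions without a test, and the less open regions include those of other cells.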

How the data were processed

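Counts per barcode deposited by the authors for WT P5 and WT adult hindlimb nuclei were used. Per the labels and the submitters' processing notes they were made with Cell Ranger ARC 2.0.0 against mm10. Gene rows (32285) hold UMI counts with intronic reads, and peak rows hold counts in peaks called per library. The sources used here do not state the unit of the peak counts. Most peak counts were even (83.2% and 84.5%), so 2 counts were taken as 1 event for intervals. The sources used here do not say how multi-mapping reads were handled, which leaves values of related genes (the myosins) or overlapping ones (Myhas and Myh4) uncertain.

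Barcodes with over 400 and under 25000 UMIs, under 10% mitochondrial UMIs and under 70000 peak counts were kept. No doublets were removed. UMIs and peak counts were summed over myonuclei and divided by the total, for peaks the total in shared regions. Ratios have exact 95% intervals from the conditional binomial distribution, shares exact Clopper-Pearson intervals, and a sum of 0 was set to 3 counts. Genes needed 100 UMIs and regions 50 counts in the 2 sums together, and 2-fold was the limit for higher and lower. With 1 library per stage no test was run. Regions were annotated with GENCODE vM21 gene models. Alternatives were other filters on nuclei, thresholds, scalings (TMM among them), weights, count minimums and peak overlaps. Thinning drew 1000 UMIs per nucleus with seed 1.

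Members and gene lists were chosen with earlier results of these data known. Named genes were the rule genes, the 25 highest and 25 lowest ratios among genes above the other barcodes of their library, all members of the study's and marker lists and of the developmental isoforms, and from other lists the 4 highest, 4 lowest and 4 most abundant members; the text prints part of these, and a few are not reported here. Myhas and 2310065F04Rik are named for their place in the myosin cluster, outside that rule. Motifs were searched in 300-base windows, in promoters for 26 of 34 genes matched in the RefSeq table. The ratio and interval code was tested on simulated counts. Python 3.11.15, numpy 2.4.6, scipy 1.17.1, pandas 2.3.3, pysam 0.24.0 and matplotlib 3.10.9 were used.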

Additional observations from a re-analysis of the deposited data

How the results depend on the processing

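No paired analysis was possible because each stage was 1 library. Of 274 named genes at least 2-fold apart, 2655 of 2658 values under the alternatives kept their direction and 2562 stayed at least 2-fold. The exceptions were Elmo1, at a log2 ratio of 0.41 without mixed nuclei, and Slc1a5, at 1.01 with 4% in both libraries and 1.71 with 4% and without mesenchymal marker nuclei, an alternative chosen after seeing the data. An alternative gave no value for a gene with under 100 UMIs in the 2 sums. With 4% in both libraries this left out Cdh2, Tuba1a, Tnnt2 and the mesenchymal markers Lum and Dpt, among others. The tally therefore does not cover such genes under cleaner choices of nuclei. All 14 gene lists with a median of at least 2-fold kept its sign in the 143 values computed. The count of genes higher in the adult was 2003 with TMM scaling and 591 with nuclei thinned to 1000 UMIs. That of lower genes was 1840 with 4% in both libraries, 1541 with 4% and without mesenchymal marker nuclei, 894 without mixed nuclei (288 P5 nuclei left), 878 thinned (5500 genes tested) and 5138 with a minimum of 20 UMIs (14615 tested). Less open regions numbered 3989 with a minimum of 200 counts (37567 tested), and P5 peaks without an adult peak 5740 with at least 50 counts. Among adult nuclei Myh4 led 77.8% with 10 myosin UMIs or more and 78.1% thinned, Myh1 14.4% in both, and Myh2 7.02% with 10 or more. Among P5 nuclei Myh4 led 33.0% with 4% in both libraries. The causes were not tested where fewer genes, nuclei or regions do not give them. With 1 library per stage, no value here has a replicate check.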
